A study of Mus musculus with 53 samples.

Results

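Common distal enhancers are regions that carried enhancer marks in mouse embryonic stem cells (ESCs) and in naive extra-embryonic endoderm cells alike, and that lie away from transcription start sites. There were 831 of them among 8944 distal enhancer regions. The other regions were 5697 distal pluripotency enhancers, shared by both ESC cultures without a distal endoderm enhancer, and 2416 distal primitive endoderm (PrE) enhancers, of endoderm cells and apart from every distal enhancer that both ESC cultures share. An enhancer of a population was an H3K27ac region with peaks of both of its libraries that overlapped, by at least 1 bp, an H3K4me1 region with peaks of both of its libraries. Enhancers closer than 1 kb to any annotated start site were dropped, overlapping 2iLIF and NACL enhancers were merged, and those that overlapped an nEnd enhancer were merged with it into a common distal enhancer. The regions were thus chosen by H3K27ac and H3K4me1 in these 3 populations, and those marks are only described here. SOX2 and GATA6 peaks, the marks of KOSR cells and sequence did not enter the rule, and position entered it through the distance to start sites alone.

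All cells came from the SGGC line, mouse ESCs in which the endogenous SOX2 protein is fused to GFP and the endogenous GATA6 protein to mCherry, as clones B9 and B12. 2iLIF cells were kept naive with MEK and GSK3 inhibitors and LIF, NACL cells in Activin A, a GSK3 inhibitor and LIF, and nEnd cells are naive extra-embryonic endoderm, the culture counterpart of the PrE. From culture in KnockOut Serum Replacement (KOSR), cells with SOX2 alone (SOX2+) and cells with both SOX2 and GATA6 (DP) were sorted, all of clone B12. CUT&RUN, in which an antibody directs micrococcal nuclease to its target in intact nuclei and the released DNA is sequenced, gave peak lists of 10 SOX2 libraries (2iLIF 2, NACL 2, SOX2+ 3, DP 3), 5 GATA6 libraries (DP 3, nEnd 2) and 12 histone libraries of 2iLIF, NACL and nEnd. Both nEnd H3K4me1 libraries were of clone B9. KOSR histone marks came from 2 SOX2+ libraries and 1 DP library of each mark, and 2 further KOSR libraries with contradictory labels entered no comparison. The 2 libraries of a factor in 2iLIF, NACL and nEnd were of separate clones. For the KOSR experiments A, A1 and B nothing states separate cultures, so p-values measure the spread between libraries, which may be technical. A site is called kept where overlapping peaks, merged, came from at least 2 libraries of a group, and an enhancer has a kept site only where it overlaps one. Peaks of 2 libraries at separate places of an enhancer do not make one. Read depth is unknown, and the number of peaks, 1378 to 401853 per library, limits what a library can show.

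The labels were compared with H3K27ac within 1 kb of the start sites of 8 pluripotent and 8 endoderm marker genes. Peaks were at 7 or 8 pluripotent markers in each 2iLIF, NACL, SOX2+ and DP library and at 3 and 5 in nEnd, where Sox2, Nanog and Esrrb had none in either library. Endoderm markers had peaks at 7 and 8 genes in nEnd, 0 and 1 in SOX2+ and 3 in DP. The 2iLIF and NACL lists, with 210904 to 401853 H3K27ac peaks against 20072 and 21394 in nEnd, also held 5 to 8 of the endoderm markers. What part these long lists have in the number of common enhancers was not tested, but with only the stronger 50% of each list the number was 266.

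Enhancers are stretches of DNA that bind transcription factors and raise the transcription of genes that may lie far away. Nucleosomes around them carry H3K4me1, and those around active ones also carry H3K27ac. SOX2 is an HMG-box factor of the pluripotency network that often binds beside OCT4, and GATA6 is a zinc-finger factor that specifies the PrE. Naive ESCs and the PrE descend from the same inner cell mass, and an enhancer marked in both may be reached through different factors in each.

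The sequences that carry the results come first. A site where kept SOX2 and GATA6 regions of DP cells overlapped, a co-bound site, is shown for 9 common distal enhancers. The first 5 come from the regions bound in all groups of libraries, in the order of the naming rule without those of 1 chromosome, which was not used for sequences, and where the SOX2 and GATA6 maxima lay within 100 bp, and the others from regions whose nearest protein-coding gene was on a list of pluripotency or endoderm genes. Each is the 240 bp around the maxima on the plus strand of GRCm38, 5′ to 3′, named after the nearest protein-coding gene. Capitals mark AGATAA, the core read by GATA factors, CATTGT, a SOX core, and ATGCAAAT, the OCT octamer, in either orientation.
Lamc1, chr1:153358666-153358905: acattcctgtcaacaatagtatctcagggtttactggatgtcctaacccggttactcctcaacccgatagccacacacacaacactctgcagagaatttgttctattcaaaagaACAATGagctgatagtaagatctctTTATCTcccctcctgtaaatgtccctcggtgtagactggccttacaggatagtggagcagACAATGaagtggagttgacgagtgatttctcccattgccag
Eif2b5, chr16:20479133-20479372: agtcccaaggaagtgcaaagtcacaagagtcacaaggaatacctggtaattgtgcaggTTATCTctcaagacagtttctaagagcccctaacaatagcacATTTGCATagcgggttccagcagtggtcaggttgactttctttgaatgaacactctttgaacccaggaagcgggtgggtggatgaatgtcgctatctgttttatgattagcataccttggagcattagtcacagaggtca
Lgi1, chr19:38320728-38320967: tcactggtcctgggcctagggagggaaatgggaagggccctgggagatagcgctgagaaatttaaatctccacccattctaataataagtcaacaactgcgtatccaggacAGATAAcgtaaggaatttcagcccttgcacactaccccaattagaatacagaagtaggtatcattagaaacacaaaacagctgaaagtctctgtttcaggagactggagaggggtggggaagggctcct
Lao1, chr4:119025450-119025689: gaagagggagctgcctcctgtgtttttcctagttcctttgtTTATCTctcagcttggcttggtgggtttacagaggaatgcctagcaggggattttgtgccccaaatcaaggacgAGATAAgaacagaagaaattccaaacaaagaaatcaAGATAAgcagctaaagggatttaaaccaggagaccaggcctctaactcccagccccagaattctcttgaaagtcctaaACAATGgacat
Slain2, chr5:72896794-72897033: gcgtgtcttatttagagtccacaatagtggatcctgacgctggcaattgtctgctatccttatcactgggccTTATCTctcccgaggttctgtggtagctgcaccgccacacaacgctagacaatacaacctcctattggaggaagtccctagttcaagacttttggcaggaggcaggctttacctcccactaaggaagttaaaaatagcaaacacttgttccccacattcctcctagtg
Sall4, chr2:168841358-168841597: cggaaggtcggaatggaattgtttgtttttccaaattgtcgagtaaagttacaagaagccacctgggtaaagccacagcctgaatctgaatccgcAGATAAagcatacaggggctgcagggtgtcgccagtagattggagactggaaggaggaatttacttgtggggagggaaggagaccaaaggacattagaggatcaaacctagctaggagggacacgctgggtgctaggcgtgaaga
Tbx3, chr5:119614441-119614680: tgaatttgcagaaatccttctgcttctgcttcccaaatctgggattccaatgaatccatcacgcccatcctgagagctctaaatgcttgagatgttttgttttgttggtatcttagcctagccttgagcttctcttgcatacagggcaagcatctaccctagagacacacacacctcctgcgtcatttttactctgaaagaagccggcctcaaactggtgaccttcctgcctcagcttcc
Klf5, chr14:99331553-99331792: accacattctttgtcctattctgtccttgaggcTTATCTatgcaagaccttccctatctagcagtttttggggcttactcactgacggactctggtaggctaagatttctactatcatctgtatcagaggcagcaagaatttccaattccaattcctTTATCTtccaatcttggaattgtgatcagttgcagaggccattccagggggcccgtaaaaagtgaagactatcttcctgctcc
Dkk1, chr19:30516569-30516808: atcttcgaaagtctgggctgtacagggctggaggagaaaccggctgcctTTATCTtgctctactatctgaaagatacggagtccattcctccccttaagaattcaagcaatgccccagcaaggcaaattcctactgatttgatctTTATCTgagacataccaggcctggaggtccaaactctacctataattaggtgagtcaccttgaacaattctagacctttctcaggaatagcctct
The windows lay outside annotated genes, except that of Tbx3, which lay in an intron of the noncoding gene Tbx3os1. The GATA string stood in 8 of the 9 windows, in 1 to 3 copies, and the SOX string in 2, those of Lamc1 and Lao1, and the octamer in that of Eif2b5. The Tbx3 window held none of the 3 strings. The windows were not chosen for these strings, which match a part of the sites these factors can bind.

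For contrast, 160 bp windows are given for regions in which SOX2 of NACL and GATA6 of nEnd had sites far apart. In the Slain2 region the SOX2 maximum lay 5587 bp from the GATA6 maximum, which is inside the co-bound Slain2 window above. In the Arhgef3 region, in introns of that gene, the distance was 6713 bp.
Slain2 NACL SOX2 site, chr5:72902383-72902542: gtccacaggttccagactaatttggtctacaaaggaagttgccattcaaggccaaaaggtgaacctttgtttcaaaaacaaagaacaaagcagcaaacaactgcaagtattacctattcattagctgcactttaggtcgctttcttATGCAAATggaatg
Arhgef3 NACL SOX2 site, chr14:27347426-27347585: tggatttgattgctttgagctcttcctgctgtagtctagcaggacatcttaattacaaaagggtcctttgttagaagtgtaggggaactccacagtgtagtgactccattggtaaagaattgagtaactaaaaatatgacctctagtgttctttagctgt
Arhgef3 nEnd GATA6 site, chr14:27340713-27340872: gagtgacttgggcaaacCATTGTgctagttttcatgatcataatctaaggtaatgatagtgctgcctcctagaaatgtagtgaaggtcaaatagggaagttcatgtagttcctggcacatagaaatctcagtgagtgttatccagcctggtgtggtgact
The Slain2 SOX2 site held the octamer and no GATA string, and the nEnd GATA6 site of Arhgef3 held a SOX string and no GATA string.

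Common distal enhancers were broad. Their median width was 11036 bp (2402 to 85280 bp) against 5383 bp for distal pluripotency and 5560 bp for distal PrE enhancers, which follows in part from merging. A single enhancer from each population made up 395 of them. The bases marked in all 3 populations spanned a median of 4178 bp, and 33 regions had no base shared by all 3. The region centre lay in an intron for 57.4%, in an exon for 1.93% and outside genes for 40.7%. The median distance to the nearest protein-coding start site was 17035 bp, against 17611 and 18705 bp for the pluripotency and PrE classes.

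The thresholds of the rule cut through a continuum. The region nearest to a start site lay 1055 bp away and 4 lay under 100 bp beyond the limit, while 6 common enhancers under 100 bp inside it, the farthest at 955 bp from a start site, were dropped. Before the distance rule 2859 common enhancers were counted, of which 2058 had a start site inside. The smallest overlap between the ESC and the nEnd part of a member was 18 bp, 1 member had under 100 bp, and the median was 5368 bp. An ESC enhancer that was near a start site, or found in 1 of the cultures alone, overlapped 647 of the distal PrE regions, and 679 distal pluripotency enhancers overlapped an nEnd enhancer near a start site.

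Within each library, the median H3K27ac rank of the members was above that of the other class marked there. The strongest peak of a member stood at a median percentile of 94.5 to 97.2 of its library in the 4 2iLIF and NACL libraries and at 66.6 and 70.5 in nEnd B9 and B12. Distal pluripotency enhancers stood at 89.4 to 94.6 in ESCs and distal PrE enhancers at 55.6 and 56.2 in nEnd. Since the lists differ in length, percentiles are compared only within a library. The strongest peak is taken over the whole region, and the greater width of the members was not adjusted for. The mark did not peak at one place: the strongest maxima lay a median of 150 to 500 bp apart between libraries of the same population, 512 to 641 bp between 2iLIF and NACL, and 1180 to 1512 bp between ESC and nEnd libraries.

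SOX2 peaks stood in members in every library, as did GATA6 peaks. In 2iLIF, 41.9% (B9) and 32.4% (B12) of members had a SOX2 peak, and in NACL 66.2% (B9) and 49.5% (B12). In SOX2+ cells the shares were 48.4% (A), 50.3% (A1) and 35.4% (B), while DP libraries had 27.4% (A), 27.4% (A1) and 10.5% (B). The DP libraries were lower than all 7 pluripotent SOX2 libraries, and they also had the fewest peaks, 1378 to 5320 against 8203 to 29623. With the strongest 1378 peaks of each library, the shares were 10.5% to 11.3% in DP and 8.54% to 9.75% in the pluripotent libraries. GATA6 peaks lay in 31.3% (A), 20.3% (A1) and 9.39% (B) of members in DP and in 73.0% (B9) and 81.3% (B12) in nEnd.

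Kept sites gave the same picture by group, beside their background over all 8944 distal enhancers. Members with a kept SOX2 site numbered 258 (31.0%) in 2iLIF, where 18.8% of all distal enhancers had one, 392 (47.2%) in NACL (30.2%), 372 (44.8%) for SOX2+ (26.8%) and 193 (23.2%) for DP (9.41%). For GATA6 the numbers were 161 (19.4%) in DP (7.61%) and 592 (71.2%) in nEnd (34.5%). The members are about 2 times as wide as the other regions, so shares over whole regions are not like for like. Per Mb, members held fewer SOX2 peaks than distal pluripotency enhancers in all 7 pluripotent libraries, for example 46.2 against 56.1 in 2iLIF B9 and 64.8 against 65.8 in SOX2+ A1. They held more in all 3 DP libraries, 26.7 against 16.01 (A), 28.9 against 17.3 (A1) and 9.08 against 5.80 (B).

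Windows of equal length were therefore compared, 2 kb around the strongest H3K27ac maximum of each region. A SOX2 peak lay in the window of 26.4% ± 12.0 of members (SD, n = 10 libraries), 20.8% ± 12.5 of distal pluripotency enhancers and 9.63% ± 3.71 of distal PrE enhancers. The members were higher than the pluripotency class by 5.66 percentage points (SD of the differences 2.76) in 10 of 10 libraries, exact sign-flip permutation p = 0.00195, adjusted p = 0.00651 over 10 tests. They were higher than the PrE class by 16.8 points in 10 of 10 libraries, with the same exact permutation p and adjusted p. By the rule members hold a distal enhancer that 2iLIF and NACL share and the PrE class holds none. These classes were thus formed on marks of ESCs, and the p-value does not test SOX2 apart from that choice. The mean difference from the PrE class was 21.2 points in the 7 pluripotent libraries and 6.52 points in DP. With 1378 peaks from each library the differences were smaller, 2.03 points from the pluripotency class and 3.28 points from the PrE class (both adjusted exact permutation p = 0.00651). The former was then 3.42 points in DP (2.85 to 3.73) and 1.44 points in the pluripotent libraries (0.734 to 1.99), with an unadjusted exact permutation p = 0.0167 in a test added after the data had been seen. With all peaks these means were 7.40 and 4.91 points (exact permutation p = 0.2). The difference from the PrE class was 8.06 points around the midpoint of the region, 10.5 points in 500 bp windows and 25.9 points over whole regions, past the threshold each time. The windows of PrE enhancers are centred on nEnd maxima and those of most members on ESC maxima, so they are not placed alike. The difference from the pluripotency class also depended on where the window was placed. Around the midpoint of the region in place of the H3K27ac maximum it was 0.46 points (exact permutation p = 0.674), in 500 bp windows 3.42 points, over whole regions 13.3 points, and among regions of 4 to 8 kb it was 3.09 points (adjusted exact permutation p = 0.0938).

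GATA6 peaks followed the endoderm classes in nEnd. In the windows, members had GATA6 in 44.8% (B9) and 54.2% (B12) against 74.1% and 81.3% of distal PrE and 7.28% and 10.1% of distal pluripotency enhancers. In DP the members stood at 15.9% (A), 10.6% (A1) and 4.57% (B), the PrE class at 16.4%, 10.3% and 3.77%, and the pluripotency class at 4.88%, 2.47% and 1.12%. Members thus exceeded the pluripotency class in 5 of 5 libraries, by 20.8 points on average, where the exact permutation p (0.104 after adjustment) is the smallest that 5 libraries allow, and by 4.83 points with 1391 peaks from each library. The mean was 40.8 points in nEnd and 7.52 points in DP. By the rule members hold an nEnd enhancer and the pluripotency class holds no distal one, so these classes were formed on marks of nEnd cells. Against the PrE class the members were lower in both nEnd libraries and in 1 of 3 DP libraries, with a mean difference of -11.2 points (exact permutation p = 0.375, adjusted 0.417). This difference was not stable. It turned to 2.68 points over whole regions, was -1.94 points with equal peak numbers, and was -6.63 without nEnd B9 and -7.20 without nEnd B12. It also depended on the windows, since those of PrE enhancers are centred on nEnd maxima and those of most members on ESC maxima. With the members centred on nEnd maxima as well, an alternative chosen after the data had been seen, it was -1.26 points (exact permutation p = 0.688). The members then stood at 64.9% (B9) and 73.5% (B12) in nEnd, and above the PrE class in all 3 DP libraries.

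**Figure D1:**
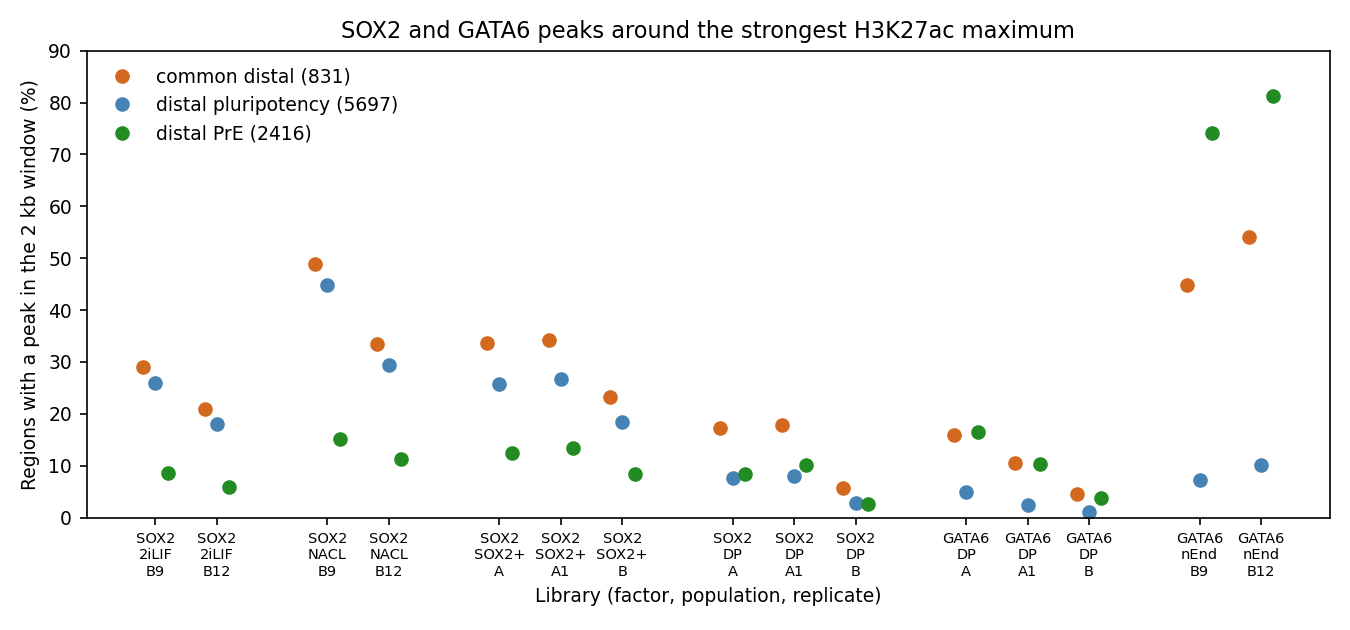
Share of regions (%) with a SOX2 or GATA6 peak in the 2 kb around the strongest H3K27ac maximum, by library and class of distal enhancer. In all 10 SOX2 libraries common distal enhancers stand above both other classes. In the 2 nEnd GATA6 libraries, at 44.8% and 54.2%, they stand between the pluripotency and the PrE class. For both factors PrE windows are centred on nEnd maxima and most windows of common distal enhancers on ESC maxima. By the rule the PrE class holds no distal enhancer that 2iLIF and NACL share.

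Kept sites of both factors gathered at the H3K27ac maximum of the members. At the maximum itself a kept site covered 10.8% (2iLIF SOX2), 19.9% (NACL SOX2), 15.8% (SOX2+ SOX2) and 7.10% (DP SOX2) of members, and GATA6 sites covered 4.81% in DP and 26.1% in nEnd. At 5 kb downstream in genome coordinates these shares were 0.60%, 1.32%, 1.20%, 0.12%, 0% and 2.29%. The maximum used is the strongest of the 6 libraries by percentile, which came from 2iLIF for 480 members, NACL for 245 and nEnd for 106.

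**Figure D2:**
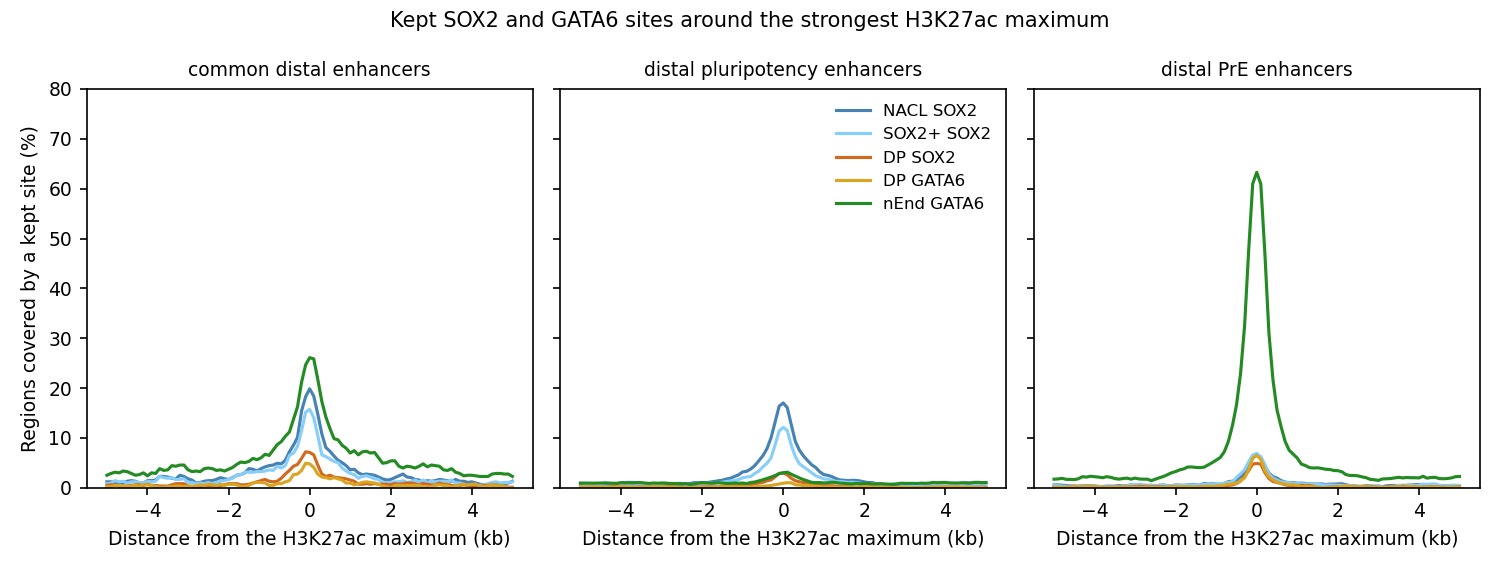
Share of regions (%) covered by a kept SOX2 or GATA6 site against the distance (kb) from the strongest H3K27ac maximum, 1 panel per class of distal enhancer and 1 line per factor and population (2iLIF not drawn). In common distal enhancers each line is highest near the maximum, with nEnd GATA6 at 26.1% and NACL SOX2 at 19.9% there.

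The factor groups divided the members unevenly. A kept SOX2 site of 2iLIF or NACL and a kept GATA6 site of nEnd were both present in 313 members (37.7%), where 9.48% of all distal enhancers had both. SOX2 without GATA6 was in 95 (11.4%, against 22% of all), GATA6 without SOX2 in 279 (33.6%, against 25%) and neither in 144 (17.3%, against 43.4%). GATA6 was kept in 76.7% (95% interval 72.3 to 80.7, Clopper-Pearson, counting error over regions only) of members with such a SOX2 site and in 65.96% (61.2 to 70.5) of those without. These shares were not tested, and the members with SOX2 were wider (median 12630 bp with both against 10380 bp with GATA6 alone). No SOX2 or GATA6 peak of any of the 15 libraries lay in 57 members (6.86%, against 25.1% of all distal enhancers). Peaks of all 15 lay in 20 (2.41%, against 0.525%), and 61 had kept sites of all 6 groups (7.34%, against 1.52%). SOX2 was kept in all 4 populations in 144 members (17.3%, against 6.88%) and in none of them in 363 (43.7%, against 63.7%). The greater width of the members was not adjusted for in these shares.

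Within members that held both factors, SOX2 and GATA6 often used the same place and often did not. Of the 313 members with SOX2 in 2iLIF or NACL and GATA6 in nEnd, 207 (66.1%) had sites that shared bases. The other 106 (33.9%) had them only at separate places, a median of 1935 bp apart and at most 22423 bp. These shares are not given for the other classes, whose regions are narrower, so they do not set the members apart. A member with any site held a mean of 1.56 such SOX2 and 1.82 GATA6 sites, at most 8 and 10.

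In DP cells, SOX2 at the members lay largely on the GATA6 sites of nEnd. SOX2 peaks of 2iLIF at members overlapped a kept nEnd GATA6 region in 38.3% (B9) and 38.9% (B12) of cases, those of NACL in 32.1% (B9) and 37.0% (B12), and those of SOX2+ cells in 36.3% (A), 33.5% (A1) and 37.8% (B). In DP the shares were 62.7% (A), 62.2% (A1) and 56.9% (B). Every DP library was above every pluripotent library. The mean was 60.6% ± 3.2 (n = 3) against 36.3% ± 2.5 (n = 7), a difference of 24.3 points with an exact permutation p = 0.0167, the smallest possible, and adjusted p = 0.0333. Against the 3 SOX2+ libraries alone, 35.9% ± 2.2, the difference was 24.7 points, where the exact permutation p of 0.1 (adjusted 0.125) is the smallest this design allows. Both comparisons were added after the data had been seen. Their values use all peaks of each list, and the DP lists were the shortest, with 1378 to 5320 peaks against 8203 to 29623. All KOSR libraries were clone B12, and with B12 libraries alone the difference from the pluripotent libraries was 23.9 points with an adjusted exact permutation p = 0.0714. Without DP A, A1 or B it was 23.2, 23.5 or 26.1 points, with an adjusted exact permutation p = 0.104 each time.

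The shift was not limited to the members. Over all SOX2 peaks of a library, 8.76% to 12.3% overlapped a kept nEnd GATA6 region in the pluripotent libraries and 29.03% to 32.5% in DP. In distal pluripotency enhancers the shares were 5.05% to 6.72% and 16.3% to 18.2%, and in distal PrE enhancers 40.9% to 46.3% and 62.1% to 74.3%. The members exceeded the pluripotency class by 34.1 points in 10 of 10 libraries (43.6% ± 12.0 against 9.46% ± 5.46, exact sign-flip permutation p = 0.00195, adjusted p = 0.00651). Members hold an nEnd enhancer by the rule and the pluripotency class holds no distal one, so the classes were formed on a mark of the cells that gave the GATA6 sites. It was 38.4 points without the pluripotency enhancers that overlapped any nEnd enhancer.

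Distances gave the same order. From a SOX2 peak to the nearest nEnd GATA6 maximum in the same member, where there was one, the median distance was 872 to 1218 bp in the 7 pluripotent libraries. It was 111 bp (A), 106 bp (A1) and 195 bp (B) in DP. Within 200 bp lay 28.99% to 36.3% of the SOX2 peaks of the pluripotent libraries and 50.5% to 58.2% of those of DP. All peaks of each list were used here too, the DP lists being the shortest.

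**Figure D3:**
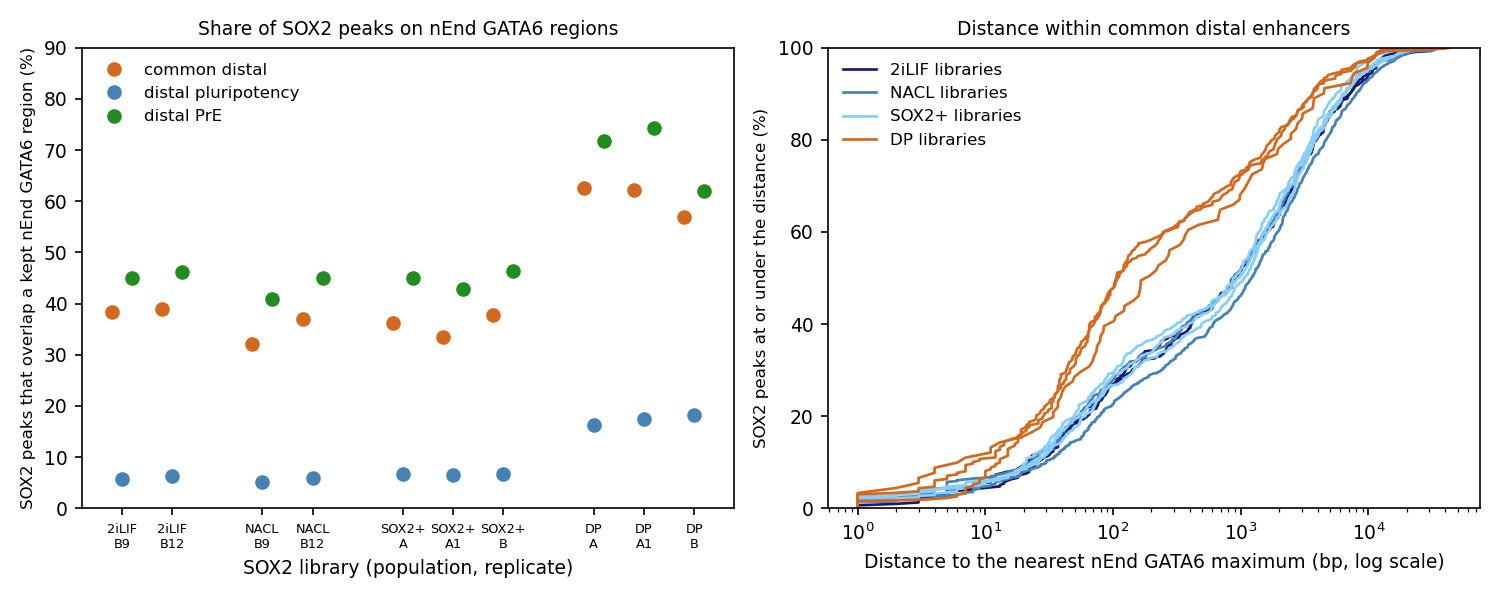
Left, share of SOX2 peaks (%) at each class of distal enhancer that overlap a kept nEnd GATA6 region, by library. Right, cumulative share (%) of SOX2 peaks in common distal enhancers against their distance (bp, log scale) to the nearest nEnd GATA6 maximum of the same region. The 3 DP libraries, at 56.9% to 62.7%, lie above the 7 pluripotent ones at 32.1% to 38.9%, and their median distances of 106 to 195 bp are shorter than 872 bp or more.

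Sites that SOX2+ and DP cells shared showed this too. Of 581 kept SOX2 sites of SOX2+ cells in members, 209 (36.0%) overlapped a kept DP SOX2 site. The share was 124 of 207 (59.9%) on nEnd GATA6 sites and 85 of 374 (22.7%) off them. By single DP library, 65.2% (A), 70.0% (A1) and 27.5% (B) of the sites on GATA6 had a DP peak, and 27.01%, 30.7% and 11.5% of those off it. The sites on GATA6 were also stronger in SOX2+ cells (median percentile 76.9 against 69.2) and wider (441 against 406 bp), and the part of strength in this was not tested. Distal pluripotency enhancers (51.8% on, 19.8% off) and distal PrE enhancers (56.1% and 23.5%) had similar shares.

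Of the 247 kept DP SOX2 sites in members, 25 lay on no kept SOX2 site of 2iLIF, NACL or SOX2+ cells. Of these, 24 were on nEnd GATA6 sites and 22 on DP GATA6 sites, against 134 and 78 of the other 222. Of the 372 members with SOX2 in SOX2+ cells, 176 (47.3%) also had it in the shorter DP lists, and 17 members had it in DP without SOX2+. GATA6 of DP was kept in 161 members, of which 149 (92.5%) also had it in nEnd. That was 25.2% of the 592 members with nEnd GATA6. By single DP library, 76.4% (A), 86.0% (A1) and 93.7% (B) of GATA6 peaks at members overlapped a kept nEnd GATA6 region. The shares were higher in distal PrE enhancers, 89.7%, 93.5% and 96.6%, and lower in distal pluripotency enhancers, 38.5%, 53.2% and 55.1%.

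SOX2 and GATA6 of DP cells met in 88 members (10.6%), against 91 distal pluripotency enhancers (1.60%) and 105 distal PrE enhancers (4.35%), with the difference in width noted above. Among the 102 members in which both were kept in DP, these 88 (86.3%) had overlapping sites. In 71 of the 88 the closest SOX2 and GATA6 maxima were at most 100 bp apart, with a median of 37 bp, and 85 of the 88 had GATA6 in nEnd too.

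As a share of each library's own peaks, the members took more of the SOX2 peaks of DP than of the pluripotent cells. They held 3.94% and 4.55% of the SOX2 peaks in 2iLIF, 3.44% and 3.83% in NACL, 3.90%, 3.53% and 4.08% for SOX2+, and DP stood at 6.17%, 6.11% and 7.40%. DP was above all pluripotent libraries (6.56% ± 0.73, n = 3, against 3.90% ± 0.37, n = 7, difference 2.67 points, exact permutation p = 0.0167, the smallest possible, adjusted p = 0.0333). The DP lists were the shortest, and with 1378 peaks from each library the difference was 1.62 points (adjusted exact permutation p = 0.0333). Without any 1 of the DP libraries A, A1 or B the adjusted exact permutation p was 0.104, the difference then being 2.86, 2.89 or 2.25 points, and with clone B12 alone it was 2.58 points with an adjusted p of 0.0714. Against SOX2+ cells the difference was 2.72 points (exact permutation p = 0.1, adjusted 0.125), or 1.31 points with equal peak numbers.

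For GATA6, the members held 4.63% (A), 5.81% (A1) and 6.83% (B) of the peaks in DP and 4.88% (B9) and 5.04% (B12) in nEnd. The groups overlapped, with a difference of 0.79 points (exact permutation p = 0.6) that turned to -1.39 points with equal peak numbers (1391). Without DP B it was 0.26 points, and without DP A 1.36 points.

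Sequence at the sites differed with the partner. In 200 bp windows, the GATA string AGATAA stood at 33.8% of the NACL SOX2 sites in members that lay on an nEnd GATA6 site and at 5.31% of those that did not, against 11.3% of all NACL SOX2 sites in the genome. For 2iLIF the shares were 29.7% and 7.25% (12.1% of all), for SOX2+ cells 31.9% and 7.49% (11.4%), and for DP 49.4% and 11.2% (29.9%). Of all nEnd GATA6 sites, 59.4% held the string. The SOX string CATTGT stood at 40.4% of the NACL SOX2 sites on GATA6 and 29.7% of those off it, and at 34.3% of the nEnd GATA6 sites on a 2iLIF or NACL SOX2 site and 22.4% of those off one (26.1% of all nEnd GATA6 sites). ATGCAAAT was rare everywhere, in 5.26% and 7.69% of the NACL SOX2 sites on and off GATA6. Both orientations were searched, each string was counted on its own, and no test was made.

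**Figure D4:**
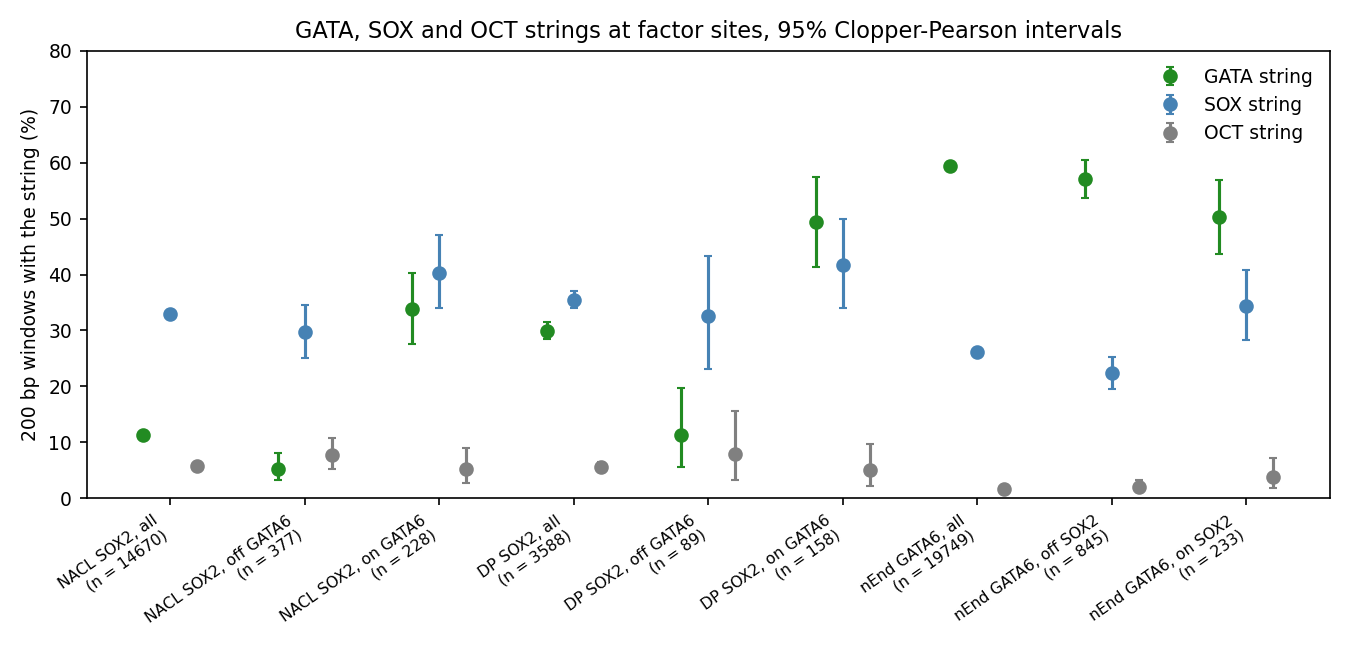
Share of 200 bp windows (%) that hold the GATA, SOX or OCT string, for NACL SOX2, DP SOX2 and nEnd GATA6 sites, all of them and those in common distal enhancers off or on sites of the other factor, with 95% Clopper-Pearson intervals. The GATA string stands at 33.8% (NACL) and 49.4% (DP) of SOX2 sites on nEnd GATA6 and at 5.31% and 11.2% of those off it.

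In 500 bp around the strongest H3K27ac maximum, where the factor need not bind, AGATAA stood in 29.5% of members, 24.6% of distal pluripotency and 48.3% of distal PrE enhancers. CATTGT stood in 27.8%, 27.4% and 44.7%. Both strings together were in 8.78% of members, 7.07% of pluripotency and 21.3% of PrE enhancers. Strings for 6 other factors were searched in the same windows. CCACACCC, a KLF string, stood in 9.15% of members, 7.72% of pluripotency and 6.37% of PrE enhancers, and the AP-1 strings TGACTCA and TGAGTCA in 14.9%, 12.1% and 19.1%. The TEAD string GGAATG stood in 29.8%, 27.5% and 36.0%, the octamer in 3.01%, 4.81% and 2.73%, the ESRRB string TCAAGGTCA in 3.73%, 3.21% and 0.95%, and the NANOG string GCCATTA in 4.69%, 4.76% and 4.72%. For GATA, SOX, AP-1, TEAD and ESRRB the members stood nearer to the pluripotency than to the PrE class, for KLF above both and for the octamer nearer to PrE. Most of their maxima were taken from ESC libraries, and none of these differences was tested.

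Nearly all members carried H3K4me1 in KOSR cells, and fewer H3K27ac. H3K4me1 peaks lay in 97.5% (A) and 98.7% (B) of members for SOX2+ and in 99.5% in the DP library. Kept SOX2+ H3K4me1 was in 804 members (96.8%), where 75.4% of all distal enhancers had it, 88.5% of the pluripotency and 37.2% of the PrE class. By library, distal pluripotency enhancers stood at 89.8% (SOX2+ A), 93.3% (SOX2+ B) and 94.5% (DP). H3K27ac peaks lay in 44.2% (A) and 43.4% (B) of members for SOX2+ and in 85.6% in the DP library. Kept SOX2+ H3K27ac was in 282 members (33.9%), against 16.2% of all distal enhancers. The DP H3K27ac list held 76260 peaks against 13514 and 14722 in SOX2+, and with the strongest 13514 peaks of each list the DP share was 46.9% beside 44.2% and 42.4%. With 1 DP library no test was possible.

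The classes kept their order in KOSR cells. H3K27ac lay in 24.5% and 25.3% of distal pluripotency enhancers and 9.69% and 10.5% of distal PrE enhancers in SOX2+ A and B, and the DP library had it in 56.3% and 44.4%. With the strongest 13514 peaks of each list, the pluripotency class stood at 24.5% (A), 23.7% (B) and 19.8% (DP) and the PrE class at 9.69%, 9.98% and 13.4%. Of the 282 members with kept H3K27ac in SOX2+ cells, 281 had it in DP. H3K27ac was kept in SOX2+ cells in 188 of the 372 members with SOX2 there (50.5%) and 94 of the 459 without (20.5%). In DP, H3K27ac lay in 86 of the 88 co-bound members and in 525 of the 638 members without kept DP SOX2 (82.3%). Region width was not adjusted for in these shares.

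**Figure D5:**
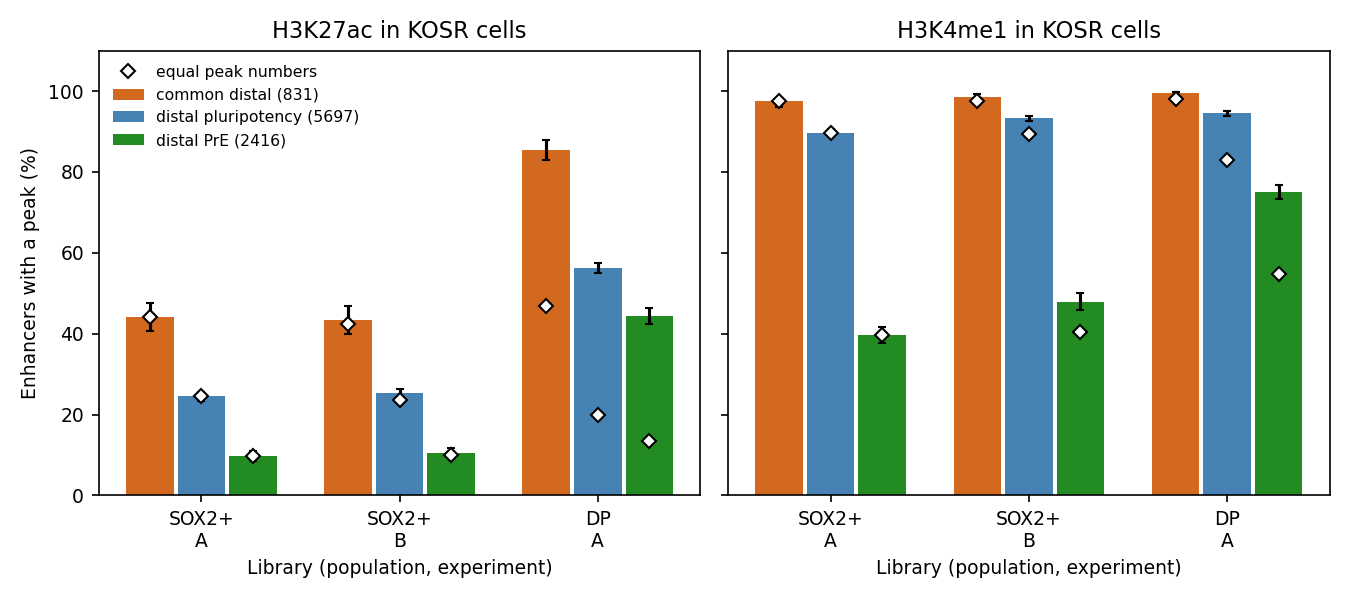
Share of regions (%) with an H3K27ac or H3K4me1 peak in each KOSR library (bars), by class of distal enhancer, with 95% Clopper-Pearson intervals, and the share with equal numbers of peaks from each list (diamonds). Common distal enhancers stand highest in every library, from 43.4% to 85.6% for H3K27ac and from 97.5% to 99.5% for H3K4me1.

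The nearest protein-coding gene was used to name regions. It need not be the gene an enhancer acts on. The members were nearest to 685 of 21911 protein-coding genes (3.13%), of which 576 had 1 member, 81 had 2 and 28 had 3 or more. Rapgef2 (a guanine nucleotide exchange factor for Rap), Sh3pxd2a (a scaffold of podosomes) and Smad7 (an inhibitory SMAD of the TGF-beta family pathways) had 5 each, and Cachd1, Rere and Sgk1 had 4. In the Rapgef2 locus the members held peaks of 0 to 11 of the 15 factor libraries. The member chr3:79216044-79225109 had SOX2 peaks in all 7 pluripotent libraries, 2 of 3 DP libraries and both GATA6 libraries of nEnd, while chr3:79252552-79255911 had none. The 4 Sgk1 members all had kept nEnd GATA6 and 1 of them kept SOX2 in 2iLIF or NACL, and the 3 members of Foxo3 had no kept nEnd GATA6 site.

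Among regulators of pluripotency, 4 of 28 listed genes were nearest to a member: Sall4, Klf5, Tbx3 and Prdm14, with 6 members. Of the 28, 19 were nearest to a distal pluripotency enhancer and 5 to a distal PrE enhancer. Sall4, a zinc-finger factor that both lineages use, had 2. The one at chr2:168784872-168793493 had SOX2 in all 10 libraries and GATA6 in nEnd alone, and the one at chr2:168836303-168843778 had peaks in 13 of 15 libraries and is co-bound in DP. Klf5 also had 2, with peaks in 6 and 13 libraries. The Tbx3 member had peaks in 10, among them no 2iLIF library. The Prdm14 member, 3143 bp from the start site, had SOX2 in the 7 pluripotent libraries and no DP or GATA6 peak.

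Of 32 endoderm genes 4 were nearest to a member: Lamc1, Dkk1, Cubn and Gata6. Of the 32, 11 were nearest to a distal pluripotency enhancer and 11 to a distal PrE enhancer. Lamc1 encodes the gamma-1 chain of laminin, a protein of the basement membrane that the endoderm lays down. Its member, chr1:153349804-153381868, had peaks in all 15 factor libraries and the highest minimum of H3K27ac, at or above the 98.5 percentile in each of the 6 ESC and nEnd libraries. The member of Dkk1, a secreted inhibitor of Wnt signals, had 14 of 15. That of Cubn, an endocytic receptor of visceral endoderm, had SOX2 in NACL and SOX2+ libraries, not in 2iLIF or DP, and GATA6 in nEnd. The Gata6 member, 9067 bp from the start site, had a lowest H3K27ac percentile of 5.77 and factor peaks in NACL B9 SOX2 and nEnd B12 GATA6 alone. H3K27ac was kept there in SOX2+ cells and present in the DP library.

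Other lists held between 0 and 8 genes with a member. Counts were 7 of 23 for factors that both lineages share, 8 of 28 for cytoskeleton and adhesion, 6 of 23 for the Wnt pathway, 4 of 24 for chromatin, 3 of 16 for Hippo/YAP, 3 of 22 for FGF and ERK, 3 of 20 for retinoids and lipids, 2 of 14 for LIF and STAT3 and 2 of 24 for Nodal and BMP. No gene of 14 for glycolysis or of 12 trophoblast regulators had one. These counts stand beside the 3.13% of all protein-coding genes and were not tested. In every list more genes were nearest to a distal pluripotency enhancer than to a member, for example 16 against 7 of the shared factors. For distal PrE enhancers the count was below that of members only for cytoskeleton and adhesion (7 against 8) and for retinoids and lipids (2 against 3). Those classes have more regions than the members. Some genes, such as Klf5, Sall4, Tbx3 and Id1, stand on several lists. For LIF, the member of Il6st (the gp130 receptor subunit) had peaks in 14 of 15 libraries and the member of Lifr, its partner, in 0. For Wnt, 3 members stood by Tcf7l2, a DNA-binding partner of beta-catenin, with peaks in 9 to 12 libraries. For Hippo, the Fat1 member (a large cadherin) had peaks in all 15, and those of Wwtr1 (TAZ) and Amotl2 in 9 and 3.

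The members bound in all groups, in order of the number of libraries and then of the lowest H3K27ac percentile, were led by those of Lamc1, Tns3, Eif2b5, Ppp1r12a, Klf9, Lgi1, Lao1, Slain2, Mkrn1 and Flt1. All 10 had peaks of the 15 factor libraries. Their lowest H3K27ac percentile fell from 98.5 for Lamc1 to 68.1 for Flt1, the gene of a VEGF receptor, and their widths ranged from 7341 bp (Flt1) to 73036 bp (Tns3, a tensin of focal adhesions). H3K27ac was kept in SOX2+ cells in 8 of the 10, the others being Lgi1 and Flt1, and it was present in DP in all 10.

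The 10 members with the strongest H3K27ac were those of Lamc1, Epha4, Arid5b (2 members), Slc44a3, Tanc1, Shroom3, Dst, Akap2 and Ski, with a lowest percentile of 97.1 or more. Strong H3K27ac did not go with binding in every case. The member of Ski, a corepressor of SMAD proteins, at chr4:155147228-155180754, stood at 97.1 to 99.1 in the 6 libraries and had no SOX2 peak in any of the 10 libraries and GATA6 in nEnd alone. The member of Shroom3, which constricts cell apices through actin, had peaks in 9 libraries and none of 2iLIF. The member of Akap2 had 9 and none in DP.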

How the data were processed

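Peak lists of 35 CUT&RUN libraries were used (33 assigned, 2 with contradictory labels), and 18 IgG samples were not analysed here. Per the submitters' processing notes and the methods, the authors trimmed reads (cutadapt 1.18), aligned them to GRCm38/mm10 (Bowtie2 2.3.4.1), handled files with SAMtools 1.9, Picard 2.9.1, bedtools 2.27.1 and deepTools 3.2.0, and called peaks per library with SEACR (no version given) against IgG. The deposited lists give total and maximum signal in 6 columns, coverage on each library's own scale, so signal only ranked peaks within a library. The NACL B12 SOX2 library was placed by its title, and no source used here explains the suffix sub02 of the DP A GATA6 library.

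Overlaps, GENCODE M21 start sites and strings were computed in Python 3.11.15, NumPy 2.4.6, SciPy 1.17.1 and Matplotlib 3.10.9, tested on simulated data. Shares per library were compared with exact two-sided permutation and sign-flip tests, Benjamini-Hochberg adjusted over 10 tests (2 added after seeing the data) at 0.05. Members, lists and tests were chosen with earlier results of these data known. Named members are the 10 bound in all 6 factor groups (by libraries with a peak, then lowest H3K27ac percentile), the 10 with the highest lowest percentile, genes nearest to 3 or more members, and listed genes. The Arhgef3 and Slain2 windows were picked for the distance between sites.

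DP and SOX2+ share experiment labels A, A1 and B. Deviations of same-experiment libraries correlated at 0.00698, 0.0738 and 0.0710, and those of different experiments at -0.0711 to -0.000228. The main tests did not take the labels as pairs, although each same-experiment value was the highest of its DP library. Alternatives covered overlap, start-site distance, window, peak number, clone, block and each factor library, or 1 library of each mark, left out.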

Additional observations from a re-analysis of the deposited data

Results flagged for a closer look

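NACL B9 stood apart among the 7 pluripotent SOX2 libraries in the 2 kb window: common distal enhancers exceeded distal PrE enhancers there by 33.7 percentage points, farther from the other 6 than Dixon's limit allows. Such a deviation arises by chance in about 1 in 20 groups, and 6 groups were examined. That library also had the most SOX2 peaks, 29623; the part of peak number was not tested.

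The excess of common distal over distal pluripotency enhancers in SOX2 peaks on nEnd GATA6 regions was larger in DP than in the pluripotent libraries, by 13.1 points (43.3 against 30.2, exact permutation p = 0.0167). The excess over distal PrE enhancers in the 2 kb window was smaller in DP, by -14.7 points (6.52 against 21.2, exact permutation p = 0.0167). Both p-values are the smallest that 3 against 7 libraries allow and were not adjusted, and DP lists are the shortest. With 1378 peaks from each library, an alternative chosen after the data had been seen, the first difference was 9.21 points (43.2 against 33.99, exact permutation p = 0.0333) and the second -0.82 points (2.71 against 3.52, exact permutation p = 0.0167).

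The 2 KOSR libraries with contradictory labels entered no comparison. Of the members, 53.3% had a peak in the H3K27ac library and 99.4% in the H3K4me1 library.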

How the results depend on the processing

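Of the 10 tests, 5 could not pass the threshold at their number of libraries, so their side was fixed, and their 59 alternatives bear on direction and size alone. Of 80 alternatives of the other 5 tests, 70 kept direction and side. Of 26 alternatives of values without a test, 14 stayed within their interval (counts within 1.5 times). In all, 137 of 139 alternatives of tests kept the direction. In 21 of those with the same direction and side the value still moved by over 1.5 times, mostly in the windows and with equal peak numbers. The exceptions in direction were the GATA6 difference between DP and nEnd, -1.39 points with equal peak numbers, and the GATA6 window difference from PrE enhancers, 2.68 points over whole regions; the cause was not tested. The SOX2 window difference from pluripotency enhancers lost its call around the midpoint (0.46) and among regions of 4 to 8 kb (3.09, 229 members). The DP minus pluripotent differences lost theirs with clone B12 alone (2.58 for shares of SOX2 peaks at members, 23.9 for those on nEnd GATA6) and without any DP library, where fewer libraries raise the smallest p; leaving out each library in turn gave 2.25 to 2.89 and 23.2 to 26.1 points. With experiment as a replicate block, DP minus SOX2+ stayed at 2.72 and 24.7 points (exact permutation p = 0.25, adjusted 0.3125); neither form could pass the threshold, so the block says nothing about stability; each DP library correlated best with the SOX2+ library of its own experiment.

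The members numbered 2491 where either library sufficed, 266 from the stronger 50% of peaks, and 849 to 1374 with 1 H3K27ac and 1 H3K4me1 library of a population left out together (6 such sets), the highest without nEnd H3K27ac B12 and an nEnd H3K4me1 library of B9. Of the KOSR shares, 2 kb windows gave 36.7% (SOX2+ A), 36.8% (B) and 72.7% (DP) for H3K27ac and 89.7%, 93.4% and 97.7% for H3K4me1. Equal peak numbers gave 46.9% for DP H3K27ac, and 97.5% (SOX2+ B) and 98.0% (DP) for H3K4me1. Peak number, not a known read depth, limits these lists.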
